A study of Mus musculus with 4 samples.

Results

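Cyclic nucleotide phosphodiesterases break down cAMP and cGMP, the second messengers that hormone receptors raise inside a cell. Their families differ in substrate and control: Pde1 enzymes are switched on by calcium and calmodulin, Pde3 enzymes hydrolyze cAMP and are inhibited by cGMP, Pde4, Pde7 and Pde8 enzymes are specific for cAMP, and Pde10 hydrolyzes both. In the kidney, cAMP carries the signals of parathyroid hormone in the proximal tubule and of vasopressin in the thick ascending limb and collecting duct, so which enzyme a segment holds bears on how its signal ends. Aristolochic acid I (AAI) is a plant toxin that enters proximal tubule cells, binds DNA and causes acute injury.

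The 7 members, *Pde1a*, *Pde3a*, *Pde4b*, *Pde4d*, *Pde7b*, *Pde8a* and *Pde10a*, were chosen by name from the 19609 genes used. *Pde4d* was on that list because it was among the genes with the greatest falls in the cluster InjuredPT-A with AAI, so its value there is a description and supports nothing. Single-nucleus RNA sequencing was done on kidney cortex of 4 male mice of mixed strain, 1 mouse for each condition. Control mice carried the transgene TRE-hKLF6 alone, and h*KLF6* OE mice carried CAG-rtTA with TRE-hKLF6, in which a promoter active in all tissues drives rtTA and doxycycline then turns on human KLF6, a zinc finger transcription factor. All 4 mice received a doxycycline diet of 200 mg/kg, and the transgenes and the diet are thus shared background of every comparison between an AAI-treated and an uninjured mouse. AAI was given as a single injection of 2 mg/kg, with collection 24 hours later, and the uninjured mice are labelled as having no treatment. Values in a series of 4 follow the order uninjured control, AAI-treated control, uninjured h*KLF6* OE, AAI-treated h*KLF6* OE.

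Each value is the mean, over the nuclei of 1 cluster in 1 mouse, of counts scaled to 10000 per nucleus, and is called a level below. Differences are of log2(level + 1), where the 1 is a pseudocount that understates changes of genes with low levels. A gene passed when the greater of its levels was at least 0.5, and it is called higher or lower where the log2 difference reached 0.2. With 1 mouse per condition there is no spread between mice, no test was made, and each count stands beside the percentage of all genes that met the same rule. In tissue averages of this kind, fewer cells with a transcript and less transcript per cell cannot be told apart within a cluster.

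The deposited table holds 23 clusters, of which 5 are normal proximal tubule (PT-S1-S2-1, PT-S1-S2-2, PT-S3-1, PT-S3-2 and PT-S3-3) and a further pair is injured proximal tubule (InjuredPT-A and InjuredPT-B). The others are descending limb (LH-DL), ascending limb (LH-AL-1 to LH-AL-3), distal convoluted tubule (DCT), connecting tubule (CNT), a cluster between them (DCT_CNT), principal cells (CD_PC), intercalated cells (IC-A, IC-B-1 and IC-B-2), podocytes, mesangial cells (MC), endothelial cells (EC-1 and EC-2) and macrophages. Marker genes went with most of these names, with 5 exceptions. EC-1 and DCT_CNT also held the proximal tubule transporter *Slc5a12* at mean levels of 17.3 and 14.4, MC was mixed, the cluster named macrophage held the endothelial gene *Flt1* at 6.68, and LH-DL held the podocyte gene *Wt1* at 4.40. Several clusters had many genes without a count, 60.5% to 63.4% of genes in LH-AL-3 and up to 62.6% in InjuredPT-A of an uninjured mouse, and the number of nuclei behind a level is unknown.

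*Pde4d* had its highest levels in the proximal tubule. This gene, ENSMUSG00000021699, spans 1503.51 kb on the plus strand of chromosome 13 (GRCm38, 108449948 to 109953461), a span longer than that of 99.9% of annotated genes in the table. In PT-S3-2 its level was 75.2, 92.1, 84.3 and 94.2, the highest of the 23 clusters in every mouse and above the next cluster, PT-S3-3 at 66.9, 68.2, 73.6 and 66.0, without overlap. The 5 normal proximal tubule clusters lay between 43.0 and 94.2 over all mice. IC-A had the lowest mean, with 10.7, 12.9, 11.6 and 7.63. From PT-S3-3 downward, each cluster overlapped with the next in the order of means, so that no strict order can be read there.

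Proximal tubule RNA was measurable in every cluster, and its level bears on the *Pde4d* levels outside the proximal tubule. The 8 proximal tubule markers summed to between 63.8 and 163 in the normal proximal tubule clusters and to between 7.98 and 94.8 in the clusters outside the proximal tubule. *Pde4d* per unit of that sum was 0.316 to 1.07 in the normal proximal tubule clusters. In IC-A it was 0.387 to 0.748, in EC-1 0.4998 to 0.630 and in MC 0.290 to 0.339, none of them above the proximal tubule range. How much of the *Pde4d* level there is proximal tubule RNA was not tested. In CNT the ratio was 0.985 to 2.16, in CD_PC 0.871 to 2.00, in DCT 0.914 to 1.98 and in LH-AL-2 0.874 to 1.68, with upper ends above every proximal tubule value. These upper ends came from AAI-treated mice. In the uninjured control mouse the ratios in these clusters were 0.871 to 1.06, above the highest normal proximal tubule ratio of that mouse, 0.719. In the uninjured h*KLF6* OE mouse CNT, CD_PC and DCT were at 0.985, 1.07 and 0.977, above the highest normal ratio there, 0.924. LH-AL-2 was at 0.876 in that mouse, under it. Podocytes, IC-B-2 and LH-AL-3 also had upper ends above the proximal tubule range over all mice, at 1.26, 1.15 and 1.13.

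*Pde4b* and *Pde1a* had their highest levels in intercalated cells, the acid and base secreting cells of the distal nephron. *Pde4b* (ENSMUSG00000028525, chromosome 4, 102087543 to 102607259, plus strand, 519.717 kb) reached 43.1, 30.7, 32.2 and 36.9 in IC-B-2, 21.4, 29.9, 24.7 and 32.0 in IC-B-1, and 15.3, 14.8, 16.7 and 21.5 in IC-A. Adjacent clusters among these overlapped. The lowest of these 12 levels was above the highest level of any other cluster, which was 7.57 in podocytes of the control mouse with AAI. Podocytes, the filtering cells of the glomerulus, followed with 5.11, 7.57, 3.95 and 6.03. Levels in the normal proximal tubule were between 0.137 and 0.799.

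*Pde1a* (ENSMUSG00000059173, chromosome 2, 79834453 to 80129458, minus strand, 295.006 kb) was at 20.4, 31.4, 21.6 and 29.8 in IC-B-2 and at 14.96, 22.1, 13.4 and 16.9 in IC-B-1. IC-A had 13.9, 15.2, 12.4 and 18.1, and the ascending limb clusters LH-AL-2 and LH-AL-1 had 9.18, 14.9, 10.6 and 13.9, and 9.76, 10.98, 8.66 and 11.99. All other clusters stayed at or under 4.14. Within the proximal tubule, PT-S1-S2-1 held 3.30, 4.14, 2.94 and 3.37 and PT-S1-S2-2 held 1.71, 1.94, 0.728 and 2.51. In each mouse both were above all 3 PT-S3 clusters, whose levels ran from 0.158 to 1.06. Across the 23 cluster means, Pearson's r between *Pde1a* and *Pde4b* was 0.66, the highest of any pair of members, and between *Pde4b* and *Pde4d* it was -0.58. These correlations describe clusters that share the same 4 mice.

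Reference promoters are shown for 3 members, *Pde4d*, *Pde4b* and *Pde1a*, which had the highest top-cluster means of the 7, at 86.5, 35.7 and 25.8. They come from RefSeq on GRCm38.p6 and run from 250 bases before an annotated start to 50 bases after it, on the strand of the gene. All 3 lie inside the annotated gene. The one shown for *Pde4d* is the only one in the table, and those shown for *Pde4b* and *Pde1a* were chosen from 4 each because they alone hold the letters in capitals, which the promoter at the 5′ end of *Pde1a* does not. Capitals mark TGACG or its reverse complement CGTCA, the core of the element through which cAMP acts on promoters by way of CREB.
*Pde4d*, chr13:108653927-108654226, plus strand: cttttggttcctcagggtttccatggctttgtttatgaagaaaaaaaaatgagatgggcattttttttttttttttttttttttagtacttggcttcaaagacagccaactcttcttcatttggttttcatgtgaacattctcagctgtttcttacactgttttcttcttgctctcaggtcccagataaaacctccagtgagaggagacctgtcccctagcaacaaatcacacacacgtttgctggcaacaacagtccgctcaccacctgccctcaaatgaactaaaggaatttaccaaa
*Pde4b*, chr4:102421305-102421604, plus strand: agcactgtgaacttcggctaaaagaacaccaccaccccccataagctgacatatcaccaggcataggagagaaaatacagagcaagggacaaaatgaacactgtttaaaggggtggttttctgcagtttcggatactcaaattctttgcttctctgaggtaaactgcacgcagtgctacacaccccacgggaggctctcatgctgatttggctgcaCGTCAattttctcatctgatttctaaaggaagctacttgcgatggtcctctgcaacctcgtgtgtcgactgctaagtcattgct
*Pde1a*, chr2:80038853-80039152, minus strand: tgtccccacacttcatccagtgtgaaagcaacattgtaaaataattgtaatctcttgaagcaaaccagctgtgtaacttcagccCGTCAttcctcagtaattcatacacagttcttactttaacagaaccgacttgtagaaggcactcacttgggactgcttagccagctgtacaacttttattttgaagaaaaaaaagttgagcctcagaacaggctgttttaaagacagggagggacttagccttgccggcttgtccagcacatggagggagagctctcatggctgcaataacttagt
The table held 13 promoters for 6 of the 7 members, and none was matched for *Pde3a*. TGACG or CGTCA, searched on both strands, was in 3 of these 13 (1 each of *Pde1a*, *Pde4b* and *Pde8a*), against 20.8% of 32851 promoters of the same length. The full palindrome TGACGTCA, in which the 2 motifs overlap, was in 0 of 13 and in 1.79% of all. A match is a stretch of letters and not a measured binding site.

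**Figure D1:**
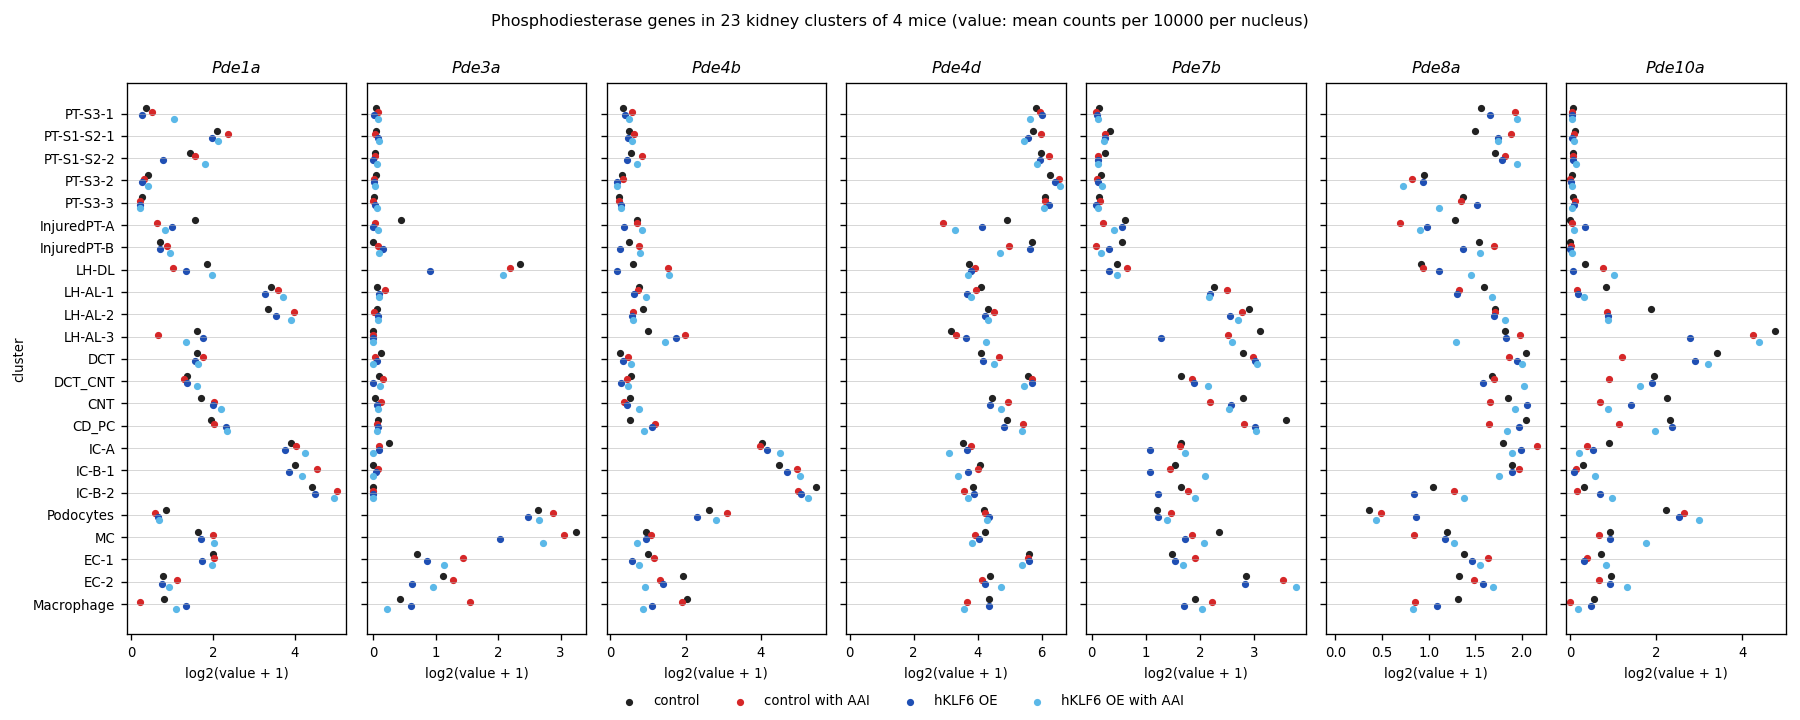
Level of each phosphodiesterase gene in 23 kidney clusters, as log2(level + 1) on the horizontal axis, with 1 point for each of the 4 mice and clusters on the vertical axis. *Pde4d* is highest in PT-S3-2, *Pde4b* and *Pde1a* in IC-B-2, *Pde3a* in MC and podocytes, and *Pde10a* in LH-AL-3.

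*Pde3a*, the cGMP-inhibited enzyme of vessels and muscle, had its highest levels in MC, a mixed cluster, and in podocytes. Its levels (ENSMUSG00000041741, chromosome 6, 141249269 to 141507448, plus strand, 258.18 kb) were 8.49, 7.31, 3.103 and 5.56 in MC and 5.21, 6.38, 4.55 and 5.30 in podocytes. LH-DL, the cluster that also held podocyte markers, had 4.08, 3.54, 0.878 and 3.22. EC-1 and EC-2 ran from 0.542 to 1.70, and the macrophage cluster from 0.166 to 1.91. Every other cluster was under 0.5 in all mice, and 15 of its 92 levels were 0. In the normal proximal tubule the highest level was 0.0643.

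*Pde7b* (ENSMUSG00000019990, chromosome 10, 20398004 to 20725078, minus strand, 327.075 kb) had its highest means in EC-2, CD_PC and DCT. It had 6.21, 10.6, 6.10 and 12.7 in EC-2, 11.03, 6.06, 7.13 and 7.20 in CD_PC, and 5.96, 6.91, 7.10 and 7.30 in DCT. The ascending limb clusters LH-AL-2, LH-AL-3 and LH-AL-1 had means of 5.69, 4.71 and 3.89, and CNT had 4.82. EC-1, the other endothelial cluster, had a mean of 2.18. The top cluster of *Pde7b* was EC-2 in both AAI-treated mice and CD_PC in both uninjured mice, although CD_PC and DCT were nearly level in the uninjured h*KLF6* OE mouse. Proximal tubule levels were at most 0.271 outside the injured clusters.

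*Pde10a* (ENSMUSG00000023868, chromosome 17, 8525372 to 8986648, plus strand, 461.277 kb) had its highest mean in LH-AL-3, at 26.3, 18.2, 5.85 and 20.0. DCT had 9.59, 1.29, 6.51 and 8.27, podocytes had 3.67, 5.30, 4.82 and 6.94, and CD_PC had 4.02, 1.20, 4.15 and 2.92. Its levels in a cluster varied more between mice than those of *Pde4d*, and in the normal proximal tubule none was above 0.0912. *Pde7b* and *Pde10a* had a Pearson's r of 0.62 over the 23 clusters.

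*Pde8a*, a cAMP-specific enzyme of high affinity, was the member spread most evenly. Its levels (ENSMUSG00000025584, chromosome 7, 81213596 to 81334533, plus strand, 120.938 kb) had a highest cluster, IC-A, at 2.47, 3.48, 2.96 and 2.70, that overlapped with DCT at 3.11, 2.62, 2.85 and 3.01 and with CD_PC at 3.12, 2.12, 2.92 and 2.58. Podocytes were lowest, at 0.285, 0.408, 0.817 and 0.353. Among the normal proximal tubule clusters, PT-S3-2 was lowest in every mouse, at 0.934, 0.763, 0.922 and 0.656, where *Pde4d* was highest.

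Genes whose cluster means followed each member most closely were ranked by Pearson's r over the 23 clusters among 8112 genes. For *Pde4d* they were *Sufu* (r = 0.90), *Dhtkd1* (0.90) and *Gm15962* (0.89), and for *Pde4b* they were *Serpinb6b* (0.93), *Gm12121* (0.93) and *Slc4a9* (0.93), a transporter of type B intercalated cells. *Bag4* (0.92), *Mindy1* (0.88) and *Rtl4* (0.87) followed *Pde1a*, and *Plekhg2* (0.96), *Svep1* (0.95) and *Msrb3* (0.95) followed *Pde3a*. The nearest to *Pde7b* were *Cnot6l* (0.91), *Gm20696* (0.89) and *Abi2* (0.87), and to *Pde10a* *Cables1* (0.87), *Hoxd8* (0.81) and *Mmd* (0.78). *Pde8a* had the weakest match, with *Gm32569* (0.79), *Suclg2* (0.78) and *Trim2* (0.78).

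Both injured clusters were set against the normal proximal tubule, taken as the plain mean of its 5 clusters in the mouse concerned. Markers of injured tubule summed to 36.7 and 32.7 in InjuredPT-A and to 10.96 and 13.8 in InjuredPT-B of the AAI-treated mice, and to at most 2.26 in the same clusters of the uninjured mice. The list was divided. *Polr2a*, which encodes a top marker of InjuredPT-A in the paper, and *Klf6* had their highest means in InjuredPT-A, at 12.6 and 3.69. *Cxcl1*, *Krt20* and *Havcr1* had theirs in InjuredPT-B, at 2.30, 0.395 and 0.382. The sums thus do not rank the injury of these clusters. In InjuredPT-A, *Pde4d* was at 6.52 in the control mouse with AAI against 71.2 in its normal clusters, and at 8.78 against 61.7 in the AAI-treated h*KLF6* OE mouse. The log2 differences were -3.26 and -2.68, and *Pde4d* ranked 4 from the lowest of 5008 genes that passed in both mice. In the uninjured mice the same cluster held 29.3 and 16.6, also under the normal proximal tubule means of 62.3 and 65.7. Proximal tubule markers in InjuredPT-A summed to 29.8 and 43.7 in the AAI-treated mice, and *Pde4d* per unit of that sum was 0.219 and 0.201. The ratio was 0.299 and 0.209 in the uninjured mice, so it was under the lowest ratio of the normal clusters in all 4 mice.

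*Pde8a* and *Pde1a* were also lower in InjuredPT-A. *Pde8a* was at 0.616 against 2.06 and at 0.870 against 1.97, differences of -0.92 and -0.67, and *Pde1a* was at 0.550 against 1.39 and at 0.767 against 1.49, differences of -0.62 and -0.49. *Pde4b* went the other way, at 0.632 against 0.453 and 0.778 against 0.374, but its difference of 0.17 in the control mouse did not reach the threshold, while that of 0.37 in the h*KLF6* OE mouse did. Of the 7 members, 4 passed in both mice, 3 were lower and 0 were higher. Among all 5008 genes, 27% were lower and 43.3% were higher, and the direction of *Pde4d* was part of why the genes were chosen. The normal reference matters for *Pde1a* and *Pde8a*, since PT-S3-2 and PT-S3-3 held *Pde1a* at 0.158 to 0.334 and PT-S3-2 held *Pde8a* at 0.763 and 0.656 in the AAI-treated mice, levels near or under those of InjuredPT-A.

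InjuredPT-B stood between the normal clusters and InjuredPT-A for the level of *Pde4d*, at 30.5 and 24.9 with AAI, differences of -1.20 and -1.28, and at rank 16 from the lowest of 4148 genes. In the uninjured mice its levels were 50.9 and 48.8. Proximal tubule markers in InjuredPT-B summed to 41.3 and 30.7 with AAI, and *Pde4d* per unit of that sum was 0.738 and 0.811. Unlike in InjuredPT-A, these ratios were within those of the normal clusters of the same mice, 0.416 to 1.07 and 0.333 to 0.982. *Pde1a* was lower at 0.830 and 0.934 (-0.38 and -0.36), and *Pde4b* was higher at 0.710 and 0.728 (0.23 and 0.33). *Pde8a*, at 2.24 and 1.94, was within 0.08 of the normal mean on the log2 scale. These 2 lower members and 1 higher member of 4 that passed stand beside 13.1% lower and 23.4% higher among all genes. *Pde3a*, *Pde7b* and *Pde10a* did not pass the minimum level in either injured cluster.

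**Figure D2:**
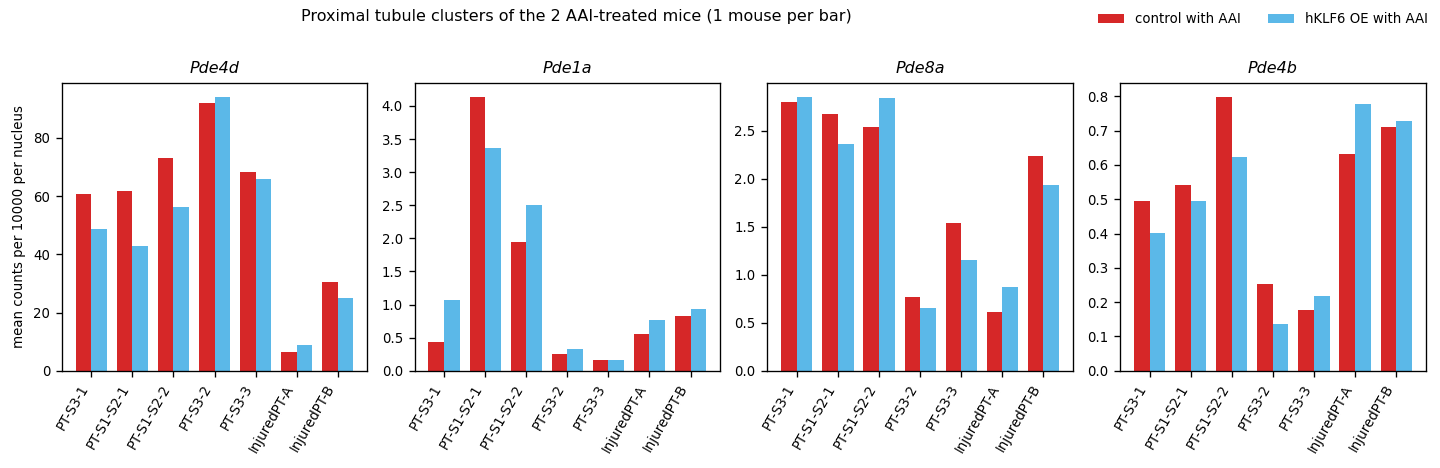
Levels of *Pde4d*, *Pde1a*, *Pde8a* and *Pde4b* (vertical axis, mean counts per 10000 per nucleus, a separate scale for each gene) in the 5 normal and 2 injured proximal tubule clusters of the 2 AAI-treated mice, 1 bar per mouse. *Pde4d* is at 6.52 and 8.78 in InjuredPT-A, under the lowest normal cluster of either mouse, while *Pde1a* and *Pde8a* in InjuredPT-A lie within the range of the normal clusters or close to it.

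All 7 members are long genes, with genomic spans of over 100 kb. In InjuredPT-A, 1084 genes of over 100 kb passed, with median differences of -0.52 in both mice, and 71.7% of them were lower and 6.73% higher. Of 1993 genes under 30 kb, 6.27% were lower and 73.7% were higher. The 65 genes of over 500 kb, *Pde4d* and *Pde4b* among them, had medians of -1.04 and -0.89, and 81.5% were lower. *Pde4d*, at -3.26 and -2.68, was below the median of its length class, which its choice for a great fall here had fixed, and *Pde4b* was at 0.17 and 0.37. *Pde1a*, at -0.62 and -0.49, was near the medians of genes over 100 kb, and *Pde8a*, at -0.92 and -0.67, was below them. In InjuredPT-B the genes over 100 kb had 27.2% lower and 14.6% higher. Reads over introns count in these levels, which gives long genes more reads for each transcript in progress, and the part of gene length in the members' differences was not tested.

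**Figure D3:**
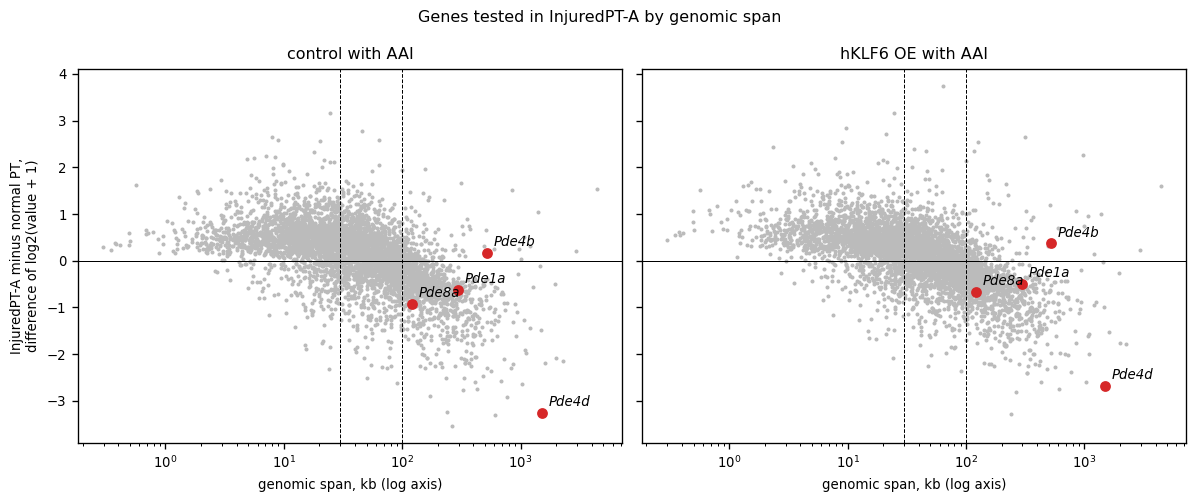
Difference of log2(level + 1) between InjuredPT-A and the normal proximal tubule (vertical axis) against genomic span in kb (log axis) for the genes with a level of at least 0.5, in the control mouse with AAI (left) and the h*KLF6* OE mouse with AAI (right), with dashed lines at 30 and 100 kb. *Pde4d* lies at -3.26 and -2.68, *Pde8a* and *Pde1a* lie among other long genes, and *Pde4b* lies just above 0.

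The rest of the cAMP pathway was read in InjuredPT-A from lists of genes named by their known roles, beside the 27% of all genes that were lower and the 43.3% that were higher. Of 15 other phosphodiesterases in the table, 3 passed and all 3 were lower: *Pde4c* (-0.90 and -0.73), the cGMP-specific *Pde9a* (-0.59 and -0.55) and *Pde7a* (-0.47 and -0.59). Of 16 cyclases, 1 passed, the adenylyl cyclase *Adcy9*, and it was lower (-0.78 and -0.95). Among the G protein subunits, the stimulatory *Gnas* (0.60 and 0.86) and the inhibitory *Gnai2* (0.53 and 0.52) and *Gnai3* (0.54 and 0.48) were higher, and the inhibitory *Gnai1* (-0.54 and -0.58) was lower. The median of all genes was 0.19 and 0.15.

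Targets of cAMP were divided. Of 12 effectors 4 passed, with the catalytic subunit *Prkacb* (-0.32 and -0.25) and the exchange factor *Rapgef3* (-0.46 and -0.82) lower and the regulatory subunit *Prkar1a* (0.46 and 0.32) higher. Of 10 anchoring proteins, which hold protein kinase A in place, 6 passed, with *Akap13* (-1.18 and -1.36) and *Akap9* (-0.73 and -0.57) lower and *Akap1* (0.77 and 0.38) and *Akap8* (0.72 and 0.52) higher. In the CREB family, 8 of 11 passed: *Creb1* (0.75 and 0.65), *Crem* (0.63 and 0.62) and *Atf1* (0.56 and 0.26) were higher, and the coactivator *Crebbp* (-0.35 and -0.50) was lower. Of 11 genes known to respond to cAMP 4 passed, with *Pck1*, a gluconeogenic enzyme (-0.80 and -0.85), the coactivator *Ppargc1a* (-0.62 and -0.61) and *Sik1* (-0.36 and -0.50) lower and *Per1* (0.27 and 0.21) higher. In the normal clusters of the uninjured mice *Pck1* was at 4.02 in control and 9.79 in h*KLF6* OE.

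In InjuredPT-B, 13.1% of all genes were lower and 23.4% higher, smaller shares than in InjuredPT-A, and list genes are read beside them. Other phosphodiesterases there were again *Pde4c* (-0.25 and -0.47) and *Pde9a* (-0.36 and -0.27), both lower, and *Pde7a*, which was higher (0.34 and 0.33). *Adcy9* was lower (-0.26 and -0.33), as were the parathyroid hormone receptor *Pth1r* (-0.30 and -0.56) and *Pck1* (-0.81 and -1.15). *Prkar1a* (0.34 and 0.30), *Akap10* (0.30 and 0.30), *Crem* (0.39 and 0.27), *Atf1* (0.26 and 0.30) and *Ep300* (0.21 and 0.22) were higher. The median of all genes there was 0.11 and 0.10.

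In the normal proximal tubule, the AAI-treated mouse of each genotype was set beside its uninjured counterpart, in pairs that share no mouse. No member was counted in both pairs. *Pde4d* had means over the 5 clusters of 62.3 and 71.2 in control mice and of 65.7 and 61.7 in h*KLF6* OE mice without and with AAI, differences of 0.19 and -0.09. *Pde8a* was at 1.71 and 2.06, and at 1.94 and 1.97 (0.17 and 0.01). *Pde1a* was at 1.17 and 1.39, and at 0.849 and 1.49 (0.14 and 0.43), past the threshold in the h*KLF6* OE pair alone. So 0 of 3 members that passed were lower and 0 higher, against 5.83% and 7.66% of 3892 genes. Of the pathway lists, *Pth1r* (-0.22 and -0.38) and the phosphatase *Dusp1* (-0.41 and -0.21) were lower and *Akap10* (0.21 and 0.22) and *Akap13* (0.21 and 0.50) were higher in both pairs.

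Over the 21 clusters outside the injured pair, AAI and no injury were compared for each member and cluster. Of 147 such combinations, 105 passed in both genotypes, with 20 higher in both, 8 lower in both, 14 in opposite directions and 63 neither. Over all genes the shares were 10.9% higher, 8.93% lower and 10.3% opposite, of 85296 combinations. The combinations of 1 gene are not independent, since its levels in all clusters come from the same mice.

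*Pde4d* was higher with AAI in both genotypes in 3 distal clusters, DCT, CNT and CD_PC. In CD_PC it went from 29.2 to 41.6 in control and from 27.0 to 40.9 in h*KLF6* OE mice (0.50 and 0.58), in CNT from 20.9 to 29.7 and from 20.1 to 25.7 (0.48 and 0.34), and in DCT from 16.3 to 24.5 and from 17.1 to 21.8 (0.56 and 0.33). In these 3 clusters both AAI-treated mice were above both uninjured mice. In DCT, 9.1% of genes were higher in both pairs, in CNT 9.43%, and in CD_PC 467 of 4088 genes. Proximal tubule markers were lower with AAI there, in CD_PC from 33.5 to 25.0 and from 25.2 to 20.4, in CNT from 19.7 to 13.7 and from 20.4 to 12.99, and in DCT from 17.8 to 12.4 and from 17.5 to 11.8. In PT-S3-3 these markers were also lower, from 108 to 63.8 and from 79.6 to 67.2. Within that sum the S1 and S2 markers went from 81.3 to 26.8 and from 58.5 to 24.6. The S3 markers rose, from 26.6 to 36.9 and from 21.1 to 42.6. The sum was lower in both pairs in PT-S1-S2-1 and PT-S1-S2-2, and in PT-S3-1 in the control pair alone. In PT-S3-2 it was higher, from 104.6 to 108.6 and from 101.3 to 104.7. *Pde4d* in PT-S3-3 went from 66.9 to 68.2 and from 73.6 to 66.0. The part of proximal tubule RNA in the *Pde4d* differences was not tested. The other distal clusters did not share the rise of *Pde4d*. DCT_CNT went from 46.4 to 50.8 and from 50.6 to 42.7 (0.13 and -0.24), IC-A had 0.25 and -0.55, IC-B-1 had -0.06 and -0.30, and IC-B-2 had -0.28 and -0.19. Outside DCT, CNT and CD_PC, *Pde4d* was counted in both pairs once more, lower in the macrophage cluster, from 19.2 to 11.6 and from 19.2 to 10.8 (-0.68 and -0.78), a cluster in which the proximal tubule markers went from 50.7 to 33.8 and from 45.9 to 42.2.

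*Pde10a* was lower with AAI in both genotypes in CNT, CD_PC and DCT_CNT, and went in opposite directions in DCT. In DCT of control mice it went from 9.59 to 1.29, a difference of -2.21 and the lowest of 4056 genes that passed, and in h*KLF6* OE mice it went from 6.51 to 8.27, a difference of 0.30. In CNT it went from 3.76 to 0.617 and from 1.67 to 0.826 (-1.56 and -0.55), in CD_PC from 4.02 to 1.20 and from 4.15 to 2.92 (-1.19 and -0.40), and in DCT_CNT from 2.86 to 0.858 and from 2.72 to 2.10 (-1.05 and -0.26). Among the genes that passed in the control pair, these differences ranked 2 of 4404, 4 of 4721 and 8 of 4396 from the lowest. LH-AL-2 went from 2.70 to 0.809 in control, at rank 6 of 4404, while the h*KLF6* OE mice had 0.848 and 0.823. The control mouse with AAI was thus lowest of the 4 in DCT, DCT_CNT, CNT, CD_PC and LH-AL-2. In LH-AL-2 it was close to both h*KLF6* OE mice. The uninjured control mouse was the highest of the 4 in DCT, DCT_CNT, CNT and LH-AL-2, so the control differences there also rest on its high level. In podocytes the control mouse with AAI was at 5.30, above both uninjured mice.

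The listed markers of the distal convoluted tubule did not share 1 pattern in DCT. *Slc12a3*, the thiazide-sensitive cotransporter, was at 176, 162, 177 and 154, and the magnesium channel *Trpm6* at 21.6, 19.1, 15.4 and 16.99. *Egf* was at 50.7, 56.6, 67.2 and 32.4. *Pvalb*, a calcium-binding protein of the early segment, was at 1.18, 0.351, 1.25 and 0.210, lower in both AAI-treated mice. *Calb1*, listed as a marker of the connecting tubule, was at 17.8, 10.2, 11.5 and 12.99. The part of a shift along the distal tubule in the *Pde10a* levels was not tested. Whether the fall of *Pde10a* is a property of 1 mouse or of AAI cannot be told apart with 1 control mouse on each side.

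**Figure D4:**
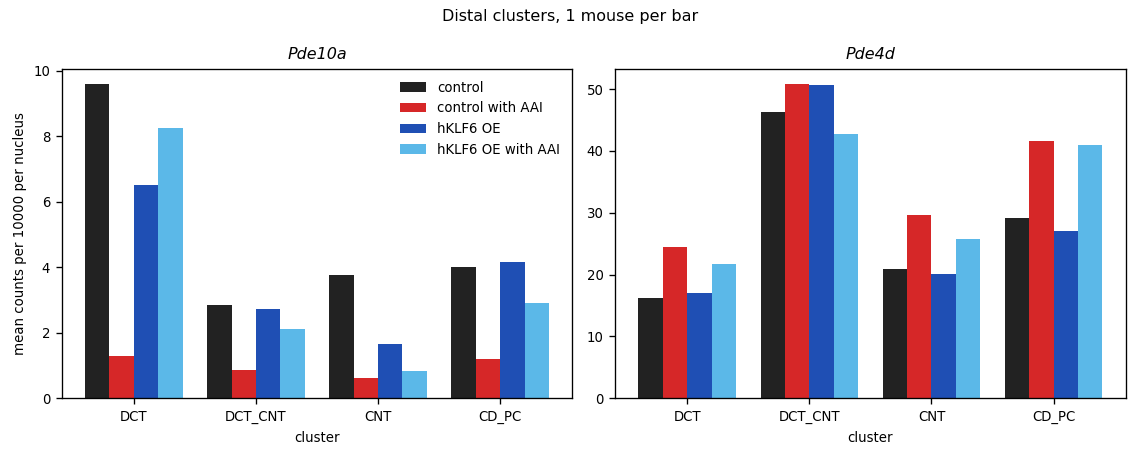
Levels of *Pde10a* (left) and *Pde4d* (right), as mean counts per 10000 per nucleus, in 4 distal clusters, with 1 bar for each of the 4 mice. *Pde10a* in the control mouse with AAI is at 1.29 in DCT against 6.51 to 9.59 in the other mice, and *Pde4d* is higher in both AAI-treated mice in DCT, CNT and CD_PC.

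*Pde1a* was higher with AAI in both genotypes in 5 clusters. In IC-B-2 it went from 20.4 to 31.4 and from 21.6 to 29.8 (0.60 and 0.45), in IC-B-1 from 14.96 to 22.1 and from 13.4 to 16.9 (0.54 and 0.31), and in LH-AL-2 from 9.18 to 14.9 and from 10.6 to 13.9 (0.64 and 0.36). MC and CNT were the others. In IC-A the difference was 0.12 and 0.51, so that cluster did not count. The macrophage cluster and LH-AL-3 were lower in both pairs. In IC-B-1, 9.94% of genes were higher in both pairs, in IC-B-2 12.9% and in LH-AL-2 8.52%.

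*Pde4b* was higher in both pairs in IC-B-1 (0.46 and 0.36) and in podocytes, from 5.11 to 7.57 and from 3.95 to 6.03 (0.49 and 0.51). It was also higher in LH-DL and, from low levels, in PT-S1-S2-2. In EC-2 it was lower, from 2.78 to 1.52 and from 1.63 to 0.904 (-0.59 and -0.47). In IC-B-2, its top cluster, it went from 43.1 to 30.7 in control and from 32.2 to 36.9 in h*KLF6* OE mice (-0.48 and 0.19). Among podocyte genes 9.6% were higher in both pairs.

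*Pde7b* in EC-2 went from 6.21 to 10.6 and from 6.10 to 12.7 (0.69 and 0.95), at rank 89 of 5125 and rank 19 of 4977 genes from the highest. Both AAI-treated mice were above both uninjured mice, and 11.8% of genes in EC-2 were higher in both pairs. Endothelial markers in that cluster summed to 61.7, 65.4, 64.9 and 61.0 in the 4 mice. Within that list *Kdr* was lower with AAI, from 3.61 to 2.05 and from 4.67 to 2.55, and *Ptprb* was higher, from 10.7 to 13.1 and from 12.4 to 14.8. DCT_CNT (0.21 and 0.26) and the macrophage cluster (0.31 and 0.34) were the other clusters where *Pde7b* was higher in both. In the intercalated clusters the pairs differed: the h*KLF6* OE pair had 0.64 in IC-A, 1.01 in IC-B-1 and 0.70 in IC-B-2, and the control pair had -0.03, -0.09 and 0.13.

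*Pde3a* and *Pde8a* were rarely counted in both pairs in 1 direction. *Pde3a* was higher in both pairs in EC-1 (0.72 and 0.27), a cluster that also held proximal tubule RNA, and in podocytes it was at 0.25 and 0.18. In MC its difference was -0.19 in control and 0.68 in h*KLF6* OE mice, in LH-DL -0.16 and 1.17, and in the macrophage cluster 1.11 and -0.39, so its larger differences were not shared by the genotypes. *Pde8a* was higher in both pairs in PT-S3-1 (0.36 and 0.29) and IC-B-2 (0.22 and 0.54) and lower in the macrophage cluster (-0.46 and -0.26). In the other 17 clusters where it passed it was not counted in both pairs in 1 direction, with -0.27 and 0.37 in LH-AL-1 and 0.16 and -0.53 in LH-AL-3.

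**Figure D5:**
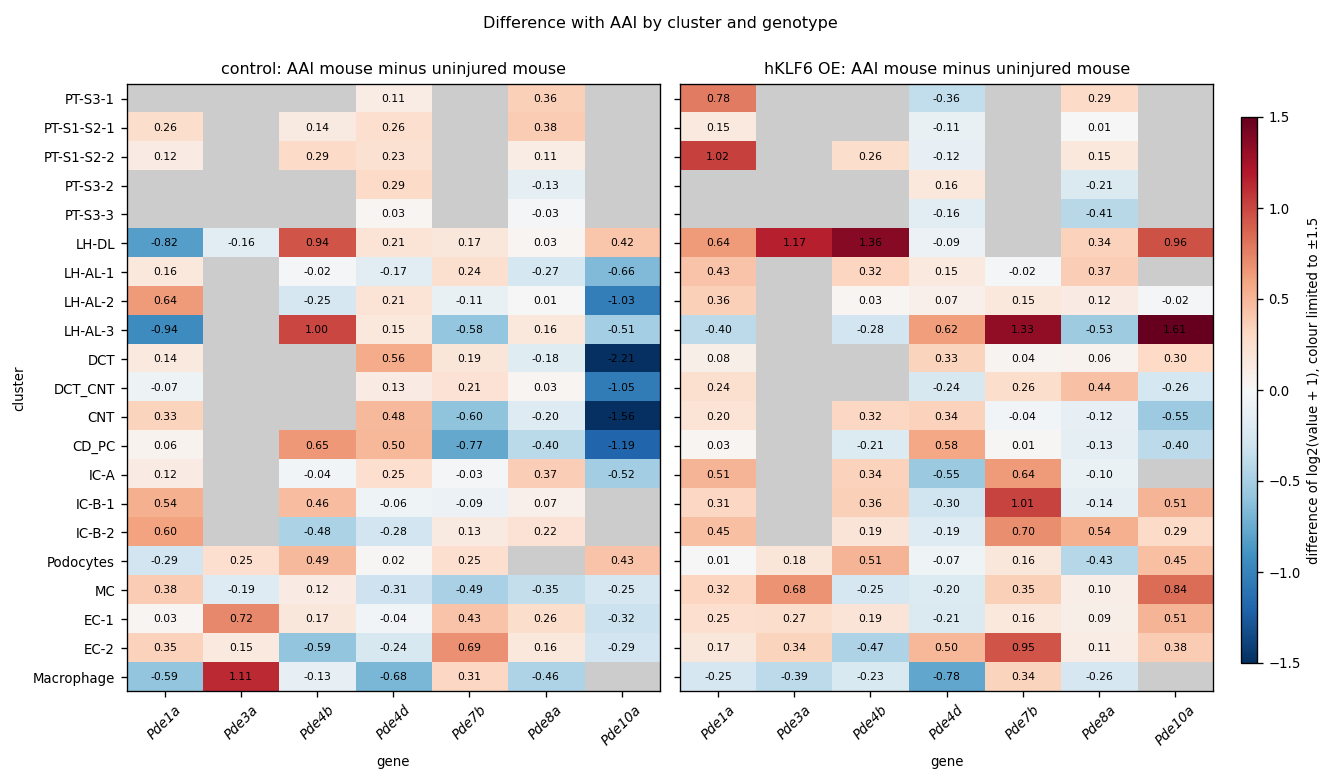
Difference of log2(level + 1) between the AAI-treated and the uninjured mouse for 7 phosphodiesterase genes (columns) in 21 clusters (rows), for control mice (left) and h*KLF6* OE mice (right). Red is higher with AAI, blue is lower, and grey marks a greater level under 0.5. *Pde10a* is blue in DCT, DCT_CNT, CNT and CD_PC of control mice, with -2.21 in DCT, and *Pde4d* is red in DCT, CNT and CD_PC in both panels.

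h*KLF6* OE was compared with control at each injury state. In the uninjured normal proximal tubule, 1 of 3 members that passed was lower and 0 were higher, with *Pde1a* at 1.17 in control and 0.849 in h*KLF6* OE mice (-0.23), against 9.33% and 7.84% of 4041 genes. By cluster, *Pde1a* passed the threshold in PT-S1-S2-2 alone, from 1.71 to 0.728 (-0.65). PT-S1-S2-1 had -0.13, and the PT-S3 clusters were under the minimum level. The same h*KLF6* OE level of 0.849 also enters the *Pde1a* difference of 0.43 with AAI. Over the 21 clusters without injury, 35 of 107 member and cluster combinations were lower and 14 higher, against 26.2% and 21.2% of all genes' combinations. *Pde7b* was lower in 9 of 15 and higher in 2, *Pde10a* was lower in 7 of 13 and higher in 2, and *Pde4b* was lower in 7 of 13 and higher in 2. The largest differences of *Pde10a* and *Pde7b* were in LH-AL-3, where 60.5% to 63.4% of genes had no count. *Pde10a* there was at 26.3 in control and 5.85 in h*KLF6* OE mice, and *Pde7b* at 7.62 and 1.42. In CD_PC *Pde10a* was at 4.02 and 4.15, and in EC-2 *Pde7b* was at 6.21 and 6.10.

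With AAI, 29 of 111 combinations were lower and 36 higher in h*KLF6* OE than in control, against 24.1% and 21.4% of all genes' combinations. *Pde10a* was higher in 10 of 13 clusters and lower in 0, the reverse of its balance without injury. *Pde4d* was lower in 8 of 21 and higher in 2, and *Pde1a* was higher in 8 of 19 and lower in 3. *Pde3a* was lower in 5 of 6 clusters and higher in 0, and without injury it was lower in 3 of 6. Each of these contrasts is between 2 mice, and a difference between mice and the effect of the genotype cannot be told apart.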

How the data were processed

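The authors counted reads in Cell Ranger against a pre-mRNA version of mm10, clustered nuclei in Seurat, and deposited signal values: nucleus counts scaled to 10000, then averaged within 1 cluster of 1 mouse, on a linear scale. The unit was read from the deposited values, which sum to 10000 in each of 92 columns. Reads over introns are counted, so levels of different genes are not directly comparable. Ratios of *Pde4d* to the proximal tubule marker sum were read only between clusters and mice. How doublets were treated here is not given in the sources used. Numbers of nuclei and depth by column are not in the table, so a level's counting error is unknown.

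Of 19632 rows, 23 with date-like names were left out. Cluster names followed the order of the paper's marker sheets and were checked with marker genes. Differences used a pseudocount of 1, a minimum level of 0.5 and a threshold of 0.2 on the log2 scale, and "both" means the same direction in both mice or genotypes. The members, gene lists, markers and length classes were chosen with earlier results of these data known. Named genes are the 7 members, the 3 genes nearest to each by Pearson's r, and list genes counted in both, except an item that is not reported here. Marker genes named for a cluster's mixture, and clusters singled out, were chosen after their values were seen. Spans are from GENCODE M21 on GRCm38 (mm10), held by 19315 rows, and promoters from RefSeq on GRCm38.p6. Alternatives were another pseudocount, minimum, threshold, normal reference, centring and each mouse or pair alone. Computing used Python 3.11.15 with pandas 2.3.3, numpy 2.4.6 and matplotlib 3.10.9.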

Additional observations from a re-analysis of the deposited data

Results flagged for a closer look

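For 14 combinations of member and cluster, the difference with AAI passed the threshold in opposite directions in the control and the h*KLF6* OE pair. These are differences of log2(level + 1), each between 2 mice, and the difference between the genotypes was not tested. Over all genes 10.3% of combinations went in opposite directions, against these 14 of 105.

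*Pde10a* held 5 of the 14. Its differences in control and h*KLF6* OE mice were -2.21 and 0.30 in DCT, -0.51 and 1.61 in LH-AL-3, -0.25 and 0.84 in MC, -0.32 and 0.51 in EC-1, and -0.29 and 0.38 in EC-2. In all 5 the control pair was lower with AAI and the h*KLF6* OE pair higher. *Pde4d* differed in EC-2 (-0.24 and 0.50) and, the other way, in IC-A (0.25 and -0.55). *Pde4b* was higher in control and lower in h*KLF6* OE mice in CD_PC (0.65 and -0.21) and LH-AL-3 (1.00 and -0.28). *Pde7b* was lower in control and higher in h*KLF6* OE mice in MC (-0.49 and 0.35) and LH-AL-3 (-0.58 and 1.33). The remaining cases were *Pde8a* in LH-AL-1 (-0.27 and 0.37), *Pde3a* in the macrophage cluster (1.11 and -0.39) and *Pde1a* in LH-DL (-0.82 and 0.64). Of the 14, 8 lie in LH-AL-3, LH-DL, MC, EC-1 and the macrophage cluster, where many genes had no count or markers of another cell type were present.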

How the results depend on the processing

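Of 159 values recomputed under the alternatives, 114 kept within the set range of the main value, 45 moved and 0 reversed. The differences of *Pde4d* in InjuredPT-A and the medians of genes over 100 kb were among those that held under each alternative run on them. In InjuredPT-A, the 3 lower members became 1 with a minimum level of 2 or a threshold of 1, and the 0 higher became 2 against the PT-S3 clusters and 1 with a pseudocount of 0.1, the uninjured mouse as the reference, or the h*KLF6* OE mouse alone. In InjuredPT-B, the 2 lower became 1 against PT-S3, against the uninjured mouse, with a minimum of 2, or with thresholds of 0.5 or 1, and the 1 higher became 3 against PT-S3 and 0 against PT-S1-S2, after centring on the median, with a minimum of 2, or with thresholds of 0.5 or 1. For AAI in the normal proximal tubule, the 0 higher became 1 in the h*KLF6* OE pair alone, in the PT-S1-S2 clusters, and with a pseudocount of 0.1. For h*KLF6* OE without injury, the 1 lower became 0 in the PT-S3 clusters, with a minimum of 2, and with thresholds of 0.5 or 1. Of the 21-cluster counts with AAI, 20 higher became 50 in the h*KLF6* OE pair alone, 38 in the control pair alone, 2 at a threshold of 0.5 and 0 at 1, and 8 lower became 22, 30, 2 and 0, 4 with a minimum of 2, and 4 without the 5 clusters with markers of other types. That last alternative, and all those for h*KLF6* OE by cluster, were chosen after seeing the data. Without injury, 35 lower became 14 at 0.5, 5 at 1 and 23 without those 5 clusters, and 14 higher became 4 at 0.5, 0 at 1, 9 with a minimum of 2 and 22 with a pseudocount of 0.1. With AAI, 29 lower became 7 at 0.5 and 2 at 1, and 36 higher became 15 and 2. A higher threshold or minimum lets fewer genes through by construction, and a single pair lets more. The other causes were not tested. The top cluster was the same in the uninjured mice alone for 5 of the 7 members, and became CD_PC for *Pde7b* and *Pde8a*. No paired analysis was possible because each condition has 1 mouse. Depth by cluster is unknown, so low levels in small clusters have no stated precision.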

Other observations

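Other phosphodiesterases of the table had their own segments. *Pde4c* was at 6.71, 4.88, 5.28 and 5.09 in IC-B-1 and at 6.47, 5.23, 4.13 and 4.79 in LH-AL-2, in the same order of mice as above. *Pde3b*, known from insulin signaling in fat and liver, had its highest mean in CD_PC, at 7.55, 4.69, 4.93 and 5.12, followed by CNT, where *Pde3a* was under 0.1. *Pde1c*, a calcium-activated relative of *Pde1a*, was at 5.06, 5.26, 4.02 and 5.02 in CD_PC and at 3.68, 2.64, 2.42 and 5.50 in IC-A.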
